A study of Mus musculus with 12 samples.

Results

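The 60 genes described here act in mitosis and cytokinesis. They were chosen by name, from the entry into M phase to the parting of the daughter cells, with earlier results of these data known. The probe set with the highest mean stood for each gene. A named probe set was found for 58 of the 60, out of 30438 genes named on the array, and all 58 were among the 18097 genes bright enough to be tested. Ccnb1, the main mitotic cyclin gene, and Foxm1, a transcription factor of G2 and M phase genes, have no probe set of their own in the platform annotation used here and were not analysed. Each of the 58 signals exceeded the array median in all 12 arrays, so no gene entered the test through 1 group alone. The lowest single value was 5.91, for Cdc25c in SCR medium with CSH.

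The cells were RAW264.7, a mouse line that resembles macrophages. Their RNA was read on 12 Affymetrix arrays in 4 groups of 3, each after 24 h in its medium. One group received the conditioned medium of PyMT-41C cells labelled SCR (SCR medium, replicates 1, 3 and 4), another that of JMJD6-KO PyMT-41C cells (KO medium, replicates 1, 2 and 3), and a further one SCR medium plus CSH, given in the labels as a blockade of the ANXA-1 receptor (replicates 1, 2 and 4). The last had normal medium, listed with 10% FBS (replicates 2, 3 and 4). Conditioned medium was mixed in equal parts with RPMI holding 10% FBS, making up 50% of the culture medium, so the content of the conditioned medium and the smaller share of fresh medium cannot be told apart. The RAW264.7 cells themselves carried no labelled genetic change: SCR and KO name the cells that made the medium. No label names cells given CSH in normal medium or its solvent alone, the number of knockout clones, or separate cultures. A p-value here therefore measures only how these samples spread, which may be technical. Values are log2 signals from RMA, a summary that puts all arrays on 1 scale, and changes are log2 differences with the standard error (SE) of a limma fit over all 18097 genes. A gene was called where its Benjamini-Hochberg adjusted p was below 0.05.

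Dividing cells make most of these transcripts in G2 and M phase and stop making them in G1 and on leaving the cycle, so the levels follow the share of cells near division. Cyclin-dependent kinase 1 with cyclin A or B starts mitosis, kinetochores tie chromosomes to spindle microtubules, and the spindle checkpoint holds the anaphase-promoting complex (APC/C) back until all are attached. Central spindle proteins then place the cleavage furrow. Many promoters of this class carry CCAAT boxes, bound by NF-Y, and a cell cycle homology region (CHR) near the start site, bound by the MuvB complex, which joins DREAM in resting cells and B-MYB and FOXM1 in dividing ones. RAW264.7 is a transformed line that divides continuously in culture, unlike most macrophages of tissues. In bulk RNA, fewer dividing cells and less of these RNAs in each dividing cell cannot be told apart.

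Mitotic genes were lower in all 3 conditioned media than in normal medium. In SCR medium 56 of 58 fell, where 15.8% of all tested genes did, Mad2l1 alone rose, where 19.3% of all did, and Plk4 was not called. Their median change was -1.21 on the log2 scale with quartiles of -1.49 and -0.94, beside a median of 0.02 over all tested genes. For 56 of the 58, every SCR array lay below every normal medium array, which held for 19.7% of all genes, and 41 fell at least 2-fold, against 1.65% of all. The counts in KO medium were also 56 lower, 1 higher and 1 not called, beside 17.6% of all genes lower and 21.4% higher, with a median of -1.16 and 0.01 over all genes. There too 56 had all arrays below normal medium, against 23.0% of all genes. In SCR medium with CSH the counts were 56, 1 and 1 as well, beside 14.9% lower and 20.8% higher over all genes, with a median of -1.34 and 0.03 over all genes. Arrays with CSH lay below normal medium for 56 of the 58 and above it for 0, against 19.4% and 27.4% of all genes. At least 2-fold falls numbered 36 in KO medium, against 1.94% of all genes, and 44 with CSH, against 1.49%. The same 56 genes were lower and the same 1 gene higher in all 3 media, and the 3 comparisons share their normal medium arrays. The share of all tested genes called in all 3 media was not computed, so this agreement is not read as a trait of the set. Because the genes were chosen with earlier results known, the shares of all genes beside them are a description and no test of the set.

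**Figure D1:**
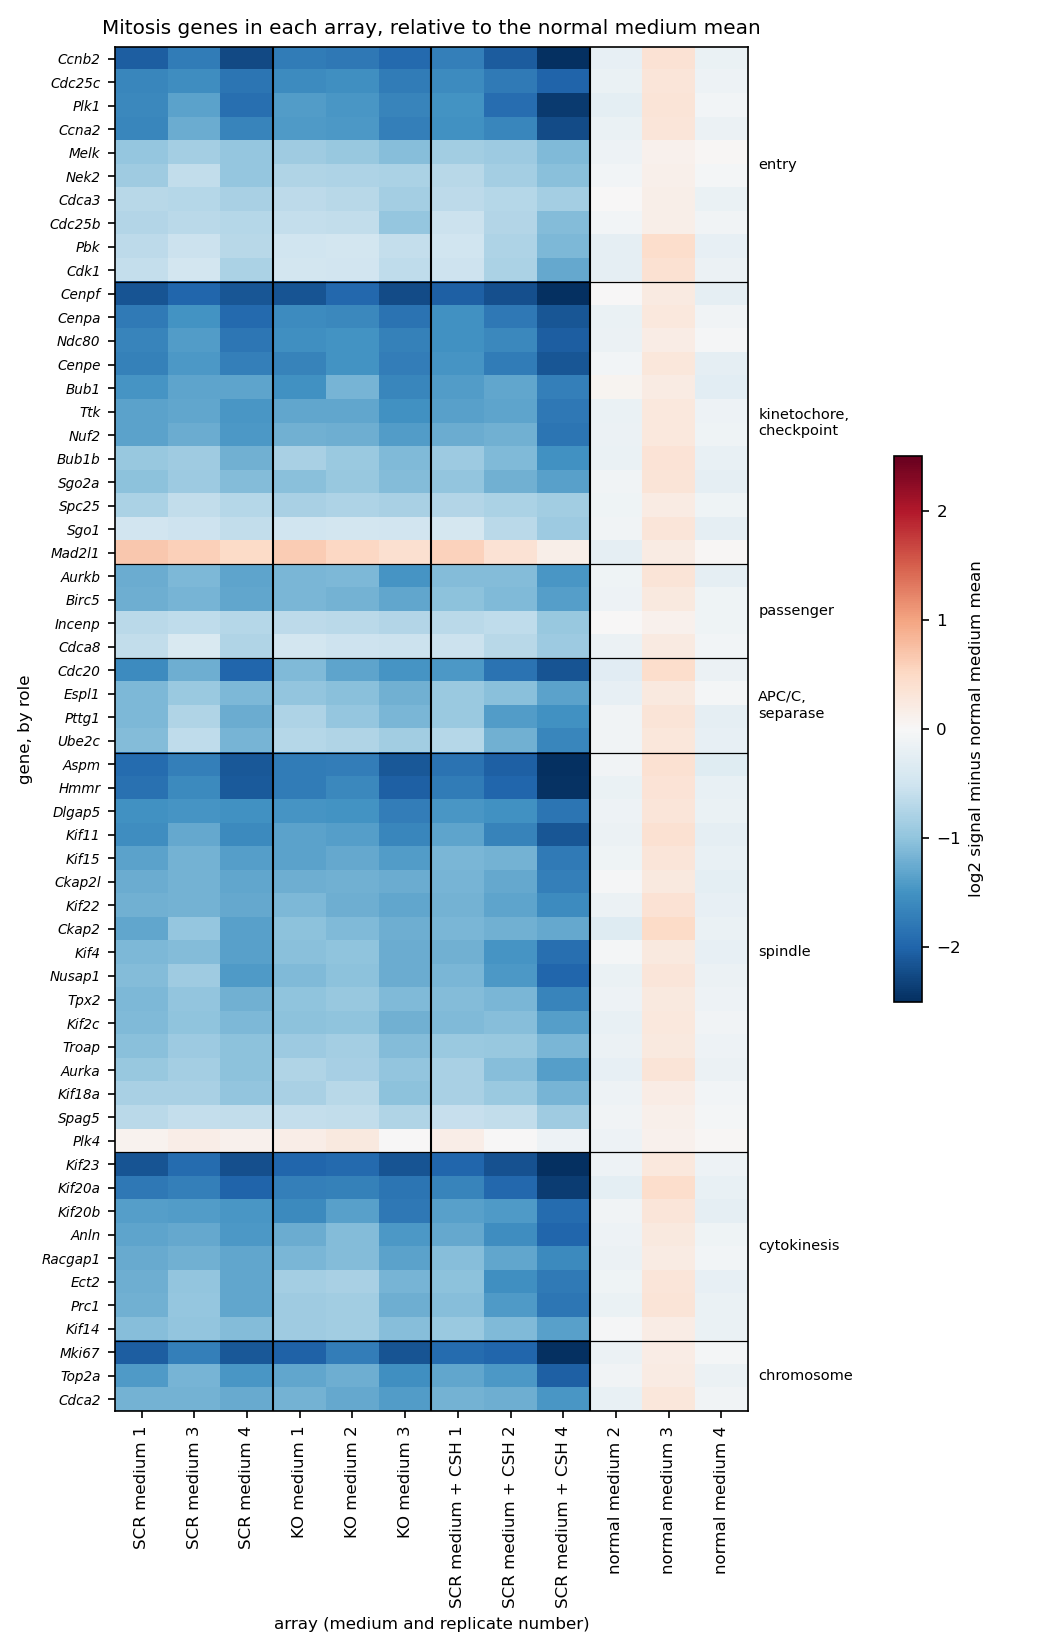
Log2 signal of the 58 measured mitosis genes in each of the 12 arrays, minus the gene's mean in normal medium. Genes run down the page by role and arrays run across by medium, with normal medium at the right. All columns of conditioned medium are blue except for Mad2l1 and Plk4, and the SCR medium with CSH 4 column is the darkest.

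Before the values by role, 7 promoters are shown, since the genes moved together and the class is known for shared promoter motifs. RefSeq windows on GRCm38.p6 run from 250 bases before to 50 bases after each annotated start, 300 bases in all, and were found for 50 of the 60 genes. Capitals mark TTTGAA or TTCGAA, the core of the CHR, and CCAAT, the NF-Y box, on either strand, so that TTCAAA and ATTGG are the reverse readings, TTCGAA reads alike on both, and neither motif contains the other. The first 4 are the genes with the largest falls in SCR medium among those whose window holds a CHR core, at chr1:189688037-189688336, chr9:61946750-61947049, chr9:70421505-70421804 and chr7:135716330-135716629, all on the minus strand. Plk4 and Sgo1, at chr3:40799701-40800000 (plus strand) and chr17:53689266-53689565 (minus strand), are the measured genes with a window whose change was smallest. Mad2l1, at chr6:66534971-66535270 (plus strand), was added after its values were seen because it moved the other way.
Cenpf: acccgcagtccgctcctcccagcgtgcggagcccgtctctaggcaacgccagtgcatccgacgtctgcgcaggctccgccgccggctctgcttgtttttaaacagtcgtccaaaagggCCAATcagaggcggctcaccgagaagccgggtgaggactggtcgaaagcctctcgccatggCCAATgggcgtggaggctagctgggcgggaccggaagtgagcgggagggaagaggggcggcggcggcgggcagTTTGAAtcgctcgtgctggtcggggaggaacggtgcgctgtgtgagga
Kif23: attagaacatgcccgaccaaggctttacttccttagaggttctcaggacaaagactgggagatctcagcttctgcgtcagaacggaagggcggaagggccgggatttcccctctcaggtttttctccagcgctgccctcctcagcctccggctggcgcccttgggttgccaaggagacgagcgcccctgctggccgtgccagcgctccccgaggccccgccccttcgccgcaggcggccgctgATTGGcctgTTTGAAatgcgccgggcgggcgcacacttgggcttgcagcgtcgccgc
Ccnb2: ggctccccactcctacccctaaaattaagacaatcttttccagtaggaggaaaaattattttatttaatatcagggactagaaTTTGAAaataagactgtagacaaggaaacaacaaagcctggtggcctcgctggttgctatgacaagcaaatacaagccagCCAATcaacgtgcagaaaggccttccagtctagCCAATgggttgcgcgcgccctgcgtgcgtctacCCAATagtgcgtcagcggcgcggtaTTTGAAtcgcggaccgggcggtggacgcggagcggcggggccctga
Mki67: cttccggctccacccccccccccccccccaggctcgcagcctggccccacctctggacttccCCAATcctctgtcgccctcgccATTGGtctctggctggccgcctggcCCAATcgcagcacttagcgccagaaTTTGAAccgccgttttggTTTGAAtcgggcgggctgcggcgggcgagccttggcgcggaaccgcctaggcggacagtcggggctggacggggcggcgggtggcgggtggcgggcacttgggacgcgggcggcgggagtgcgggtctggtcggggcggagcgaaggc
Plk4: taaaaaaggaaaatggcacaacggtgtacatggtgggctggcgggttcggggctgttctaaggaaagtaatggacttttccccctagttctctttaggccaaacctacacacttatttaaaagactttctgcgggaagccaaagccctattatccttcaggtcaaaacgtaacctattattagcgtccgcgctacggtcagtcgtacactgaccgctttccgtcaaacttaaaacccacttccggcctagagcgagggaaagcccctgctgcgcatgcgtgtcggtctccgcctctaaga
Sgo1: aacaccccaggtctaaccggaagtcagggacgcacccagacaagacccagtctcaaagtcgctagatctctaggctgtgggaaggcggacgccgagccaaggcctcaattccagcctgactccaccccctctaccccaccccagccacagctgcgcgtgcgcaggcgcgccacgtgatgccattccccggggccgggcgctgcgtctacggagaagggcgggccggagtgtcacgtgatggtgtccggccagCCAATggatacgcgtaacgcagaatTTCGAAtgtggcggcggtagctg
Mad2l1: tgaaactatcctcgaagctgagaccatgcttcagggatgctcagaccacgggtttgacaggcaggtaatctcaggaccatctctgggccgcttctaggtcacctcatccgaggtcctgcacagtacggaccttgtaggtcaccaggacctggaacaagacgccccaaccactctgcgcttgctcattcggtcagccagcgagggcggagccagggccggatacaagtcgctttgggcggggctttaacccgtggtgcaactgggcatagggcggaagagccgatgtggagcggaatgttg

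In Cenpf and Kif23 the CHR core begins 2 bases past the annotated start, and in Ccnb2 4 bases past it with a further copy at -167. Its copies in Mki67 lie at -116 and -98, beside CCAAT boxes at -188, -166 and -141. The Sgo1 window holds TTCGAA at 27, and the windows of Plk4 and Mad2l1 hold neither motif. The windows of 6 genes that fell in SCR medium also hold neither, namely Birc5 (-1.23), Nuf2 (-1.33), Nusap1 (-1.12), Pttg1 (-1.05), Melk (-0.92) and Kif18a (-0.87). Over the 49 tested genes with a window, which have 52 windows because some have several starts, 39 windows (75.0%) held a CHR core, against 19.2% of all 32851 promoter windows. Within 50 bases of the start the core stood in 67.3% of the mitotic windows and in 5.31% of all. A CCAAT box was present in 75.0% and at least 2 of them in 46.2%, against 37.4% and 11.7% of all windows. Both motifs together were in 65.4% against 7.52%. By role, the core was in 9 of 9 windows of cytokinesis genes, 11 of 15 of spindle genes, 8 of 13 of kinetochore and checkpoint genes and 5 of 7 of entry genes. The 37 genes with a CHR core had a median change of -1.24 in SCR medium and the 12 without one -1.0. Those 12 include Mad2l1 and Plk4, the genes that did not fall. A link between motif and change was not tested. A match of letters is a description and not a measured binding site.

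Regulators of mitotic entry fell in all 10 measured cases in SCR medium, with a median of -0.87 and a range from -2.03 to -0.62. Over all tested genes 15.8% fell and 19.3% rose in SCR medium, and these shares stand beside the count of each role group below. Cdk1, the kinase that drives mitosis (chromosome 10, 69335146 to 69352912), read 9.44, 9.57 and 9.23 in SCR medium, 9.58, 9.56 and 9.39 in KO medium, 9.51, 9.24 and 8.75 in SCR medium with CSH, and 9.80, 10.41 and 9.89 in normal medium. All 9 arrays of conditioned medium lay below the 3 of normal medium, whose replicate 3 stood far above the other two. Its change was -0.62 (SE 0.18, adjusted p = 0.0186) in SCR medium, -0.52 (SE 0.18, adjusted p = 0.0385) in KO medium and -0.87 (SE 0.18, adjusted p = 0.0025) with CSH. Without normal medium replicate 3 it was -0.43 in SCR medium (adjusted p = 0.0818) and -0.34 in KO medium (adjusted p = 0.166), which ends both calls. Ccnb2, a B-type cyclin that activates Cdk1, had the largest fall of the group. Its arrays read 10.29, 10.61 and 10.10 in SCR medium, 10.61, 10.57 and 10.42 in KO medium, 10.65, 10.28 and 9.52 with CSH, and 12.16, 12.72 and 12.20 in normal medium. That is 4.07-fold lower in SCR medium (SE of the log2 change 0.24, adjusted p = 2.64e-05), 3.55-fold in KO medium and 4.63-fold with CSH.

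Cdc25c, a phosphatase that activates Cdk1 (chromosome 18, 34732993 to 34751564), read 6.27, 6.35 and 6.09 in SCR medium, 6.34, 6.37 and 6.16 in KO medium, 6.34, 6.15 and 5.91 with CSH, and 7.74, 8.22 and 7.78 in normal medium. Every conditioned array was more than 1 log2 unit below every normal one. The change was -1.68 in SCR medium (SE 0.13, adjusted p = 1.09e-06), -1.62 in KO medium and -1.78 with CSH. Melk, a kinase gene raised in dividing cells, read 6.46, 6.59 and 6.47 in SCR medium, 6.54, 6.48 and 6.36 in KO medium, 6.56, 6.52 and 6.33 with CSH, and 7.30, 7.54 and 7.45 in normal medium. Here the 3 conditioned media were nearly level, at -0.92, -0.97 and -0.96 with an SE of 0.08 each. The other entry genes that fell in SCR medium were the polo-like kinase gene Plk1 (-1.61), the cyclin gene Ccna2 (-1.52), the centrosome kinase gene Nek2 (-0.82), Cdca3 (-0.73), the phosphatase gene Cdc25b (-0.71) and the kinase gene Pbk (-0.63).

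**Figure D2:**
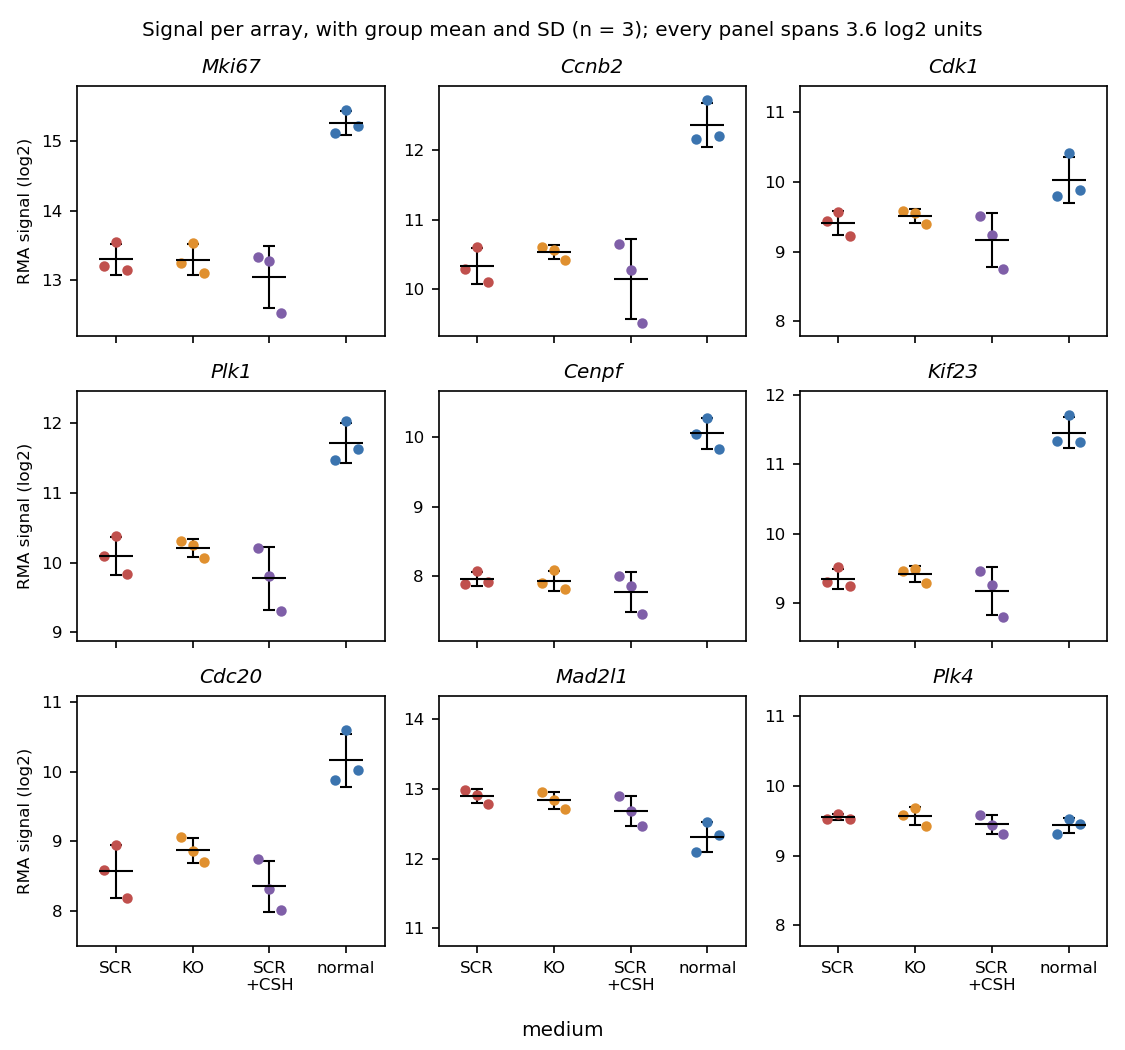
RMA signal on the log2 scale of 9 of the genes in each array (points), with the group mean and SD of 3 arrays (bars), by medium. Each panel spans the same height, and normal medium stands clear above the conditioned media for all but Mad2l1, which is reversed, and Plk4, where the groups overlap.

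Among kinetochore and checkpoint genes 11 of 12 fell and 1 rose in SCR medium, with a median of -1.34. Cenpf, a large coiled-coil protein of the outer kinetochore (chromosome 1, 189640606 to 189688107), read 7.89, 8.07 and 7.91 in SCR medium, 7.90, 8.09 and 7.81 in KO medium, 8.0, 7.86 and 7.45 with CSH, and 10.05, 10.28 and 9.83 in normal medium. The nearest conditioned and normal arrays were 8.09 and 9.83. It was 4.28-fold lower in SCR medium (log2 change -2.10, SE 0.14, adjusted p = 2.9e-07), 4.35-fold in KO medium and 4.87-fold with CSH. By size its fall ranked 21 among all tested genes in SCR medium, 36 in KO medium and 11 with CSH. Ndc80, the microtubule-binding subunit of the NDC80 complex (chromosome 17, 71496100 to 71526857), read 8.67, 8.94 and 8.53 in SCR medium, 8.79, 8.83 and 8.65 in KO medium, 8.81, 8.71 and 8.27 with CSH, and 10.19, 10.51 and 10.30 in normal medium. None of its conditioned arrays came within 1 log2 unit of a normal one. Its change was -1.62 in SCR medium (SE 0.14, adjusted p = 2.11e-06), -1.58 in KO medium and -1.74 with CSH.

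Further subunits of the NDC80 complex fell too in SCR medium, Nuf2 at -1.33 and Spc25 at -0.71. Changes for Cenpa, the centromeric histone H3 variant, and Cenpe, a kinetochore motor, were -1.74 and -1.61. Of the checkpoint kinase and scaffold genes, Bub1 changed by -1.38, Ttk by -1.36 and Bub1b by -1.01, and the shugoshin genes Sgo2a and Sgo1, which guard centromeric cohesion, by -1.01 and -0.53.

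Mad2l1, which encodes the checkpoint protein MAD2 that binds Cdc20, moved against the others. Its arrays read 12.99, 12.91 and 12.79 in SCR medium, 12.96, 12.84 and 12.72 in KO medium, 12.90, 12.68 and 12.47 with CSH, and 12.09, 12.52 and 12.34 in normal medium. The SCR and KO arrays all lay above normal medium, which 23.5% and 26.8% of all genes did, while the lowest CSH array, replicate 4, overlapped it. The rise was 0.58 in SCR medium (SE 0.12, adjusted p = 0.00209), 0.52 in KO medium (SE 0.12, adjusted p = 0.00355) and 0.37 with CSH (SE 0.12, adjusted p = 0.0304). The call with CSH was lost without normal medium replicate 2 or 4 or CSH replicate 1 or 2, at changes of 0.25, 0.38, 0.26 and 0.37 with adjusted p = 0.137, 0.062, 0.133 and 0.0639. Like the genes that fell, Mad2l1 was highest in replicate 3 within normal medium and lowest in replicate 4 within SCR medium with CSH.

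All 4 genes of the chromosomal passenger complex, which corrects faulty attachments and later marks the midzone, fell in SCR medium, with a median of -0.96. Birc5, survivin (chromosome 11, 117849237 to 117855743), read 7.21, 7.27 and 7.14 in SCR medium, 7.30, 7.25 and 7.14 in KO medium, 7.42, 7.34 and 7.06 with CSH, and 8.31, 8.68 and 8.33 in normal medium. Its groups were well apart from normal medium, at -1.23 in SCR medium (SE 0.11, adjusted p = 2.32e-06), -1.21 in KO medium and -1.17 with CSH. The kinase gene Aurkb changed by -1.23, and the scaffold gene Incenp and Cdca8, borealin, by -0.68 and -0.59.

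Genes for the release of sister chromatids fell likewise, 4 of 4 with a median of -1.05 in SCR medium. Espl1, separase, the protease that cuts cohesin (chromosome 15, 102296254 to 102324357), read 7.45, 7.64 and 7.44 in SCR medium, 7.59, 7.53 and 7.37 in KO medium, 7.64, 7.52 and 7.23 with CSH, and 8.37, 8.82 and 8.52 in normal medium. No conditioned array reached the lowest normal one. The change was -1.06 in SCR medium (SE 0.12, adjusted p = 2.41e-05), -1.07 in KO medium and -1.11 with CSH. The APC/C activator gene Cdc20 changed by -1.60 (SE 0.23, adjusted p = 0.000119), Pttg1, securin, the inhibitor of separase, by -1.05, and Ube2c, the ubiquitin-conjugating enzyme of the APC/C, by -0.96.

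Spindle genes formed the largest role group, and 16 of 17 fell in SCR medium with a median of -1.18. Aspm, a spindle pole protein (chromosome 1, 139454188 to 139494088), read 7.83, 8.06 and 7.65 in SCR medium, 8.01, 8.03 and 7.65 in KO medium, 7.91, 7.72 and 7.24 with CSH, and 9.67, 10.15 and 9.45 in normal medium. The distance from the highest conditioned to the lowest normal array exceeded the range within any group. It was 3.76-fold lower in SCR medium (log2 change -1.91, SE 0.19, adjusted p = 8.17e-06), 3.63-fold in KO medium and 4.39-fold with CSH. Dlgap5, a protein that stabilises spindle fibres at kinetochores (chromosome 14, 47387779 to 47418407), read 8.33, 8.37 and 8.33 in SCR medium, 8.36, 8.35 and 8.11 in KO medium, 8.38, 8.33 and 8.01 with CSH, and 9.71, 10.15 and 9.67 in normal medium. The SCR arrays were almost equal and all far below normal medium, at -1.5 (SE 0.13, adjusted p = 1.9e-06), with -1.57 in KO medium and -1.60 with CSH. Falls of the kinesin motor genes in SCR medium ran from -1.48 for Kif11, which slides spindle poles apart, through -1.3 for Kif15, -1.22 for Kif22, -1.18 for Kif4 and -1.07 for Kif2c to -0.87 for Kif18a. Hmmr (-1.84), Ckap2l (-1.24), Ckap2 (-1.20), Nusap1 (-1.12), Tpx2 (-1.10), Troap (-0.99), the kinase gene Aurka (-0.93) and Spag5 (-0.62) completed the fallers.

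Plk4, the kinase that starts the copying of centrioles (chromosome 3, 40799951 to 40816883), was the gene that passed in no comparison with normal medium. It read 9.52, 9.60 and 9.53 in SCR medium, 9.59, 9.68 and 9.43 in KO medium, 9.59, 9.44 and 9.31 with CSH, and 9.31, 9.53 and 9.46 in normal medium. The groups overlapped throughout. Differences were 0.12 in SCR medium (SE 0.09, adjusted p = 0.348), 0.13 in KO medium (SE 0.09, adjusted p = 0.264) and 0.01 with CSH (SE 0.09, adjusted p = 0.925), with 95% intervals of -0.07 to 0.31, -0.06 to 0.32 and -0.18 to 0.2.

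**Figure D3:**
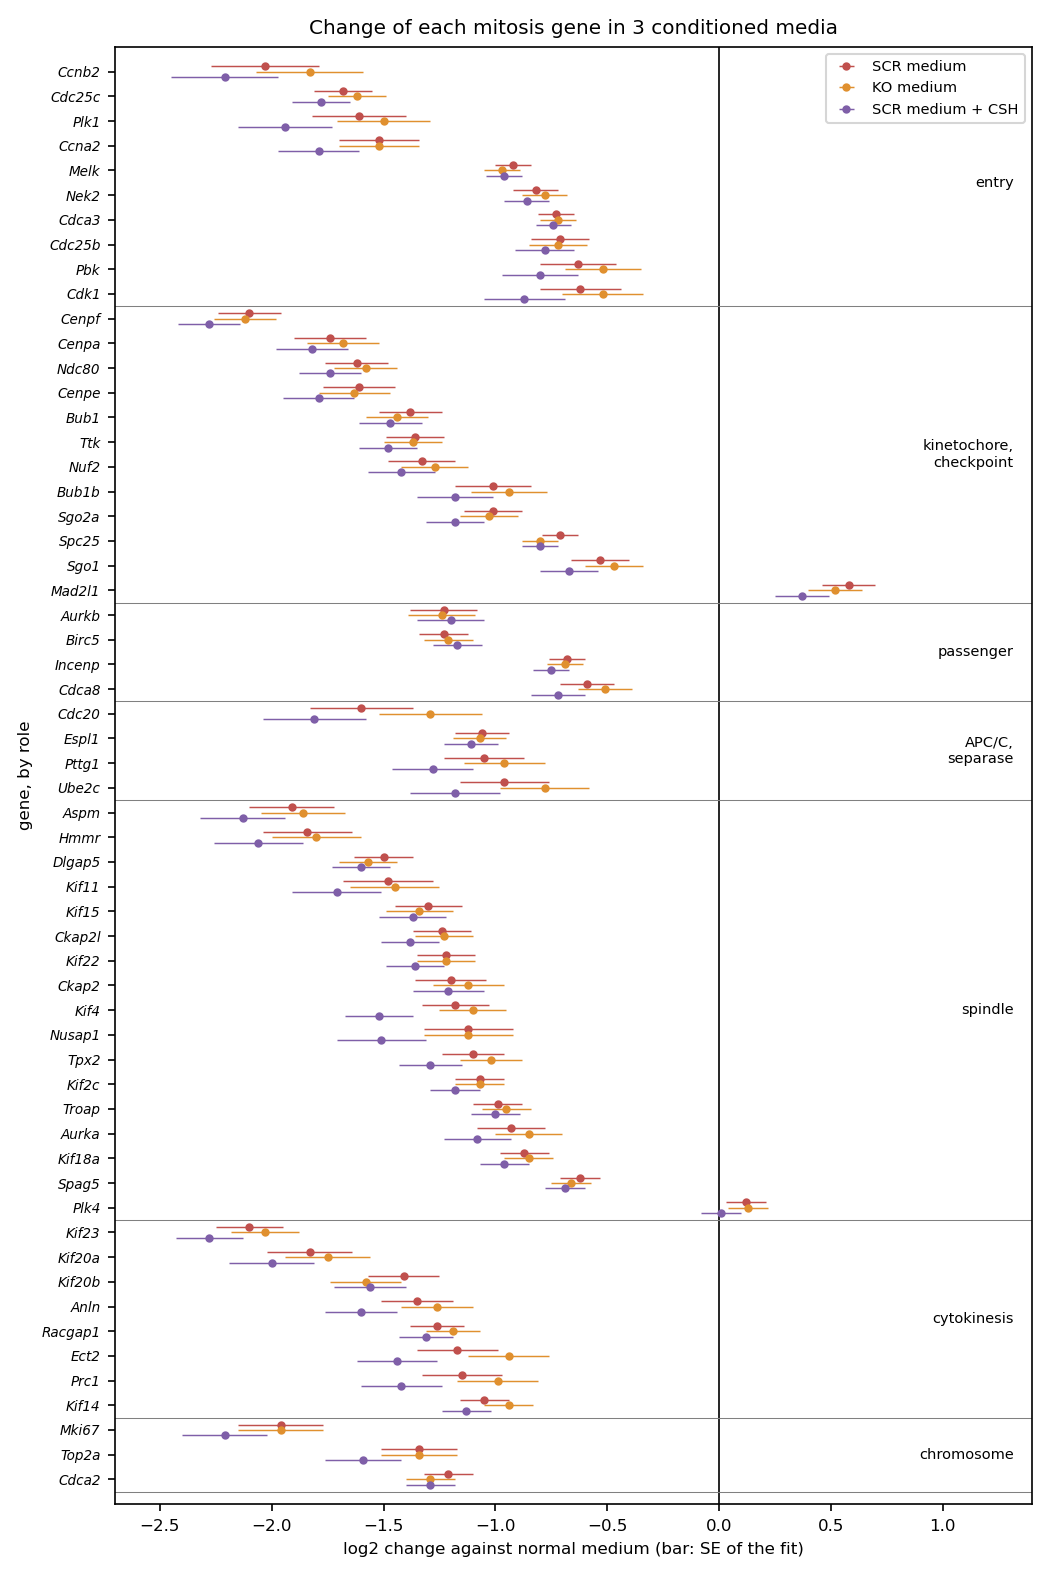
Log2 change of each of the 58 genes against normal medium in SCR medium (red), KO medium (orange) and SCR medium with CSH (purple), with the SE of the fit, by role. Points left of the zero line are lower in conditioned medium. Only Mad2l1 and Plk4 stand to the right, and the purple point is the leftmost for most genes.

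Cytokinesis genes fell in 8 of 8 cases in SCR medium, with a median of -1.3. Kif23, a motor of the centralspindlin complex (chromosome 9, 61917277 to 61946810), read 9.30, 9.52 and 9.25 in SCR medium, 9.47, 9.50 and 9.29 in KO medium, 9.46, 9.27 and 8.80 with CSH, and 11.33, 11.71 and 11.32 in normal medium. Its nearest conditioned and normal arrays stood at 9.52 and 11.32. It was 4.28-fold lower in SCR medium (log2 change -2.10, SE 0.15, adjusted p = 5.72e-07), 4.09-fold in KO medium and 4.85-fold with CSH. Racgap1, its partner in centralspindlin (chromosome 15, 99620496 to 99651656), read 7.63, 7.68 and 7.59 in SCR medium, 7.74, 7.81 and 7.56 in KO medium, 7.83, 7.60 and 7.30 with CSH, and 8.75, 9.10 and 8.82 in normal medium. Conditioned and normal arrays did not meet. The Racgap1 change was -1.26 in SCR medium (SE 0.12, adjusted p = 5.82e-06), -1.19 in KO medium and -1.31 with CSH. Kif20a, which carries the passenger complex to the midzone, changed by -1.83, Kif20b by -1.41 and Kif14 by -1.05. Anln, an anillin of the contractile ring, changed by -1.35, Ect2, the exchange factor that activates RhoA, by -1.17, and Prc1, a bundler of midzone microtubules, by -1.15.

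The chromosome proteins Mki67, Top2a and Cdca2 fell as well. Mki67, which coats mitotic chromosomes and is the antigen of the Ki-67 proliferation stain (chromosome 7, 135689784 to 135716450), read 13.20, 13.55 and 13.14 in SCR medium, 13.24, 13.54 and 13.10 in KO medium, 13.33, 13.28 and 12.53 with CSH, and 15.11, 15.45 and 15.21 in normal medium. All 9 conditioned arrays were more than 1 log2 unit below every normal one. It was 3.89-fold lower in SCR medium (log2 change -1.96, SE 0.19, adjusted p = 5.91e-06), 3.90-fold in KO medium and 4.63-fold with CSH. Top2a, topoisomerase II alpha, which untangles sister chromatids (chromosome 11, 98992947 to 99024199), read 10.35, 10.60 and 10.31 in SCR medium, 10.47, 10.54 and 10.23 in KO medium, 10.46, 10.32 and 9.72 with CSH, and 11.68, 11.97 and 11.62 in normal medium. It too had no overlap, at -1.34 in SCR medium (SE 0.17, adjusted p = 4.52e-05), -1.34 in KO medium and -1.59 with CSH. Cdca2, a chromatin-bound partner of protein phosphatase 1 (chromosome 14, 67673180 to 67715841), read 8.07, 8.06 and 7.99 in SCR medium, 8.06, 7.97 and 7.86 in KO medium, 8.07, 8.03 and 7.80 with CSH, and 9.06, 9.54 and 9.16 in normal medium. Its spread within each conditioned medium was small beside the change of -1.21 in SCR medium (SE 0.11, adjusted p = 3.46e-06), -1.29 in KO medium and -1.29 with CSH.

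The 58 genes also moved together from array to array within a group. As the median over the 58 genes of the difference from the normal medium mean, the arrays stood at -1.21, -1.10 and -1.3 in SCR medium, -1.11, -1.09 and -1.25 in KO medium, -1.12, -1.25 and -1.64 with CSH, and -0.13, 0.27 and -0.14 in normal medium. Normal medium replicate 3 was the highest of its group for 58 of 58 genes, against 45.3% of all tested genes, and CSH replicate 4 the lowest of its group for 58 of 58, against 38.9% of all. Of the 58, 56 were highest of all 12 arrays in normal medium replicate 3 and 55 lowest in CSH replicate 4. The 56 follows from the lack of overlap with normal medium and the rank of replicate 3 within it. Shares of all genes were not computed for either count. KO replicate 3 was lowest of its group for 56 (34.2% of all genes) and SCR replicate 4 for 50 (25.2%). SCR replicate 3 was highest of its group for 53 (29.9%). The genes share their arrays, so these counts are not independent observations. Without normal medium replicate 3 the median change in SCR medium was -1.05 and in KO medium -1.01, and without CSH replicate 4 the median with CSH was -1.19.

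**Figure D4:**
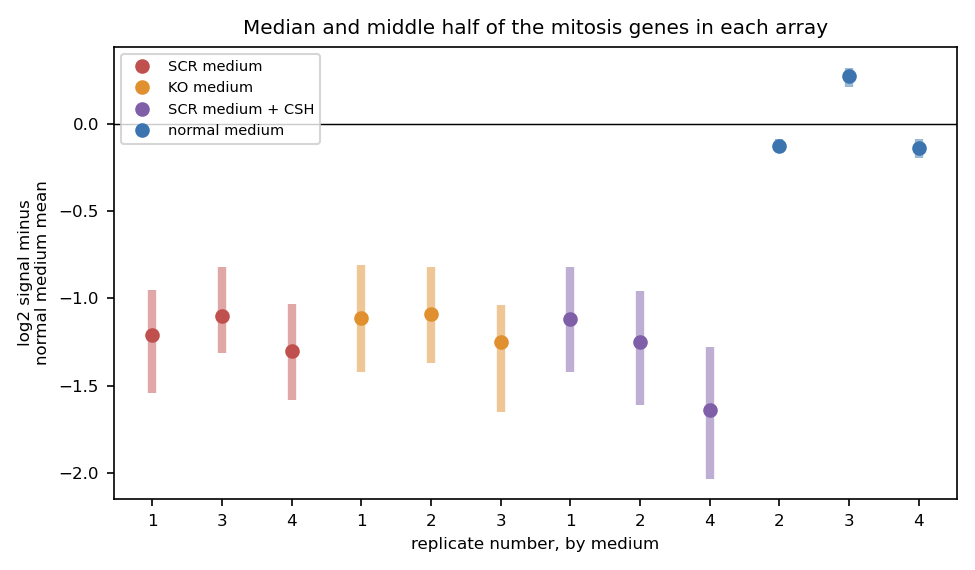
Median (point) and middle 50% (bar) over the 58 genes of the log2 signal minus the normal medium mean, for each array, by medium and replicate number. SCR medium with CSH replicate 4, at -1.64, and normal medium replicate 3, at 0.27, stand at the ends.

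KO and SCR medium were compared next, since JMJD6 was removed only from the cells that made the medium. None of the 58 was called by limma, where 0.271% of all tested genes were, and 0 had an unadjusted p below 0.05, where 5.94% of all did. The arrays of the groups overlapped for all 58, and did not for 9.36% of all genes. Differences ran from -0.17 for Kif20b to 0.30 for Cdc20 with a median of 0.03, and no 95% interval reached beyond -0.51 or 0.79. That median had no stable sign, at -0.027 without SCR replicate 4, -0.003 without KO replicate 2, 0.007 without KO replicate 1, 0.023 without SCR replicate 1, 0.103 without KO replicate 3 and 0.108 without SCR replicate 3. The 3 genes with the smallest p were Cdc20, Ect2 and Spc25. Cdc20 read 9.06, 8.86 and 8.70 in KO medium and 8.59, 8.94 and 8.18 in SCR medium, a difference of 0.30 (SE 0.23, 95% interval -0.19 to 0.79, adjusted p = 0.995). Ect2 read 9.48, 9.50 and 9.15 in KO medium and 9.10, 9.33 and 9.02 in SCR medium, a difference of 0.23 (SE 0.18, 95% interval -0.17 to 0.62, adjusted p = 0.995). The highest SCR array of each lay within the KO range. Spc25 read 8.89, 8.94 and 8.90 in KO medium and 8.91, 9.09 and 8.99 in SCR medium, a difference of -0.09 (SE 0.08, 95% interval -0.27 to 0.09, adjusted p = 0.995), and here too the groups overlapped.

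CSH was compared with SCR medium alone to ask whether the receptor blockade alters the response. Again limma called none of the 58, nor any other tested gene (0%), and 0 of the 58 had an unadjusted p below 0.05, against 6.24% of all. Arrays overlapped for all 58, while 8.59% of all genes did not overlap. The differences ran from -0.39 to 0.07 with a median of -0.14, 56 of them below 0, and the intervals from -0.82 to 0.35. The median was 0.003 without CSH replicate 4, -0.089 without SCR replicate 3 and -0.253 without CSH replicate 1. Kif4 read 7.75, 7.48 and 7.07 with CSH and 7.83, 7.87 and 7.60 in SCR medium, a difference of -0.33 (SE 0.15, 95% interval -0.67 to 0.00, adjusted p = 0.807). Nusap1, a binder of spindle microtubules, read 8.58, 8.29 and 7.74 with CSH and 8.64, 8.84 and 8.31 in SCR medium, a difference of -0.39 (SE 0.20, 95% interval -0.82 to 0.03, adjusted p = 0.837). In both genes CSH replicate 4 was the lowest array and replicate 1 lay within the SCR range. Mad2l1, whose arrays are given above, differed by -0.21 (SE 0.12, 95% interval -0.47 to 0.05, adjusted p = 0.868).

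KO medium was also set against SCR medium with CSH. The limma fit called 0 of the 58, beside 1.90% of all genes, and 5 of the 58 had an unadjusted p below 0.05, beside 15.7% of all. None of the 58 had groups that did not overlap, beside 21.8% of all genes. The differences ran from -0.04 to 0.52 with a median of 0.16, 53 of them above 0, and the median was 0.04 without CSH replicate 4 and 0.273 without CSH replicate 1. Ect2 read 9.48, 9.50 and 9.15 in KO medium and 9.30, 8.78 and 8.55 with CSH, a difference of 0.50 (SE 0.18, 95% interval 0.11 to 0.89, adjusted p = 0.205). Kif4 read 7.91, 7.95 and 7.70 in KO medium and 7.75, 7.48 and 7.07 with CSH, a difference of 0.42 (SE 0.15, 95% interval 0.08 to 0.76, adjusted p = 0.212). Only the highest CSH array of each reached the KO range. Prc1 read 9.47, 9.49 and 9.14 in KO medium and 9.30, 8.95 and 8.56 with CSH, a difference of 0.43 (SE 0.18, 95% interval 0.04 to 0.82, adjusted p = 0.275). Cdc20 (0.52, adjusted p = 0.292) and Anln (0.34, adjusted p = 0.311), named after their values were seen, were the others of the 5. Of the 56 genes that fell, the group mean was lowest with CSH for 51, in KO medium for 4 and in SCR medium for 1. The CSH means include replicate 4, the lowest of its group for all 58. Without that array the median difference of CSH from SCR medium was 0.003. The 2 comparisons with SCR medium share its arrays, and the comparisons among media share groups in pairs, so they are not independent.

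**Figure D5:**
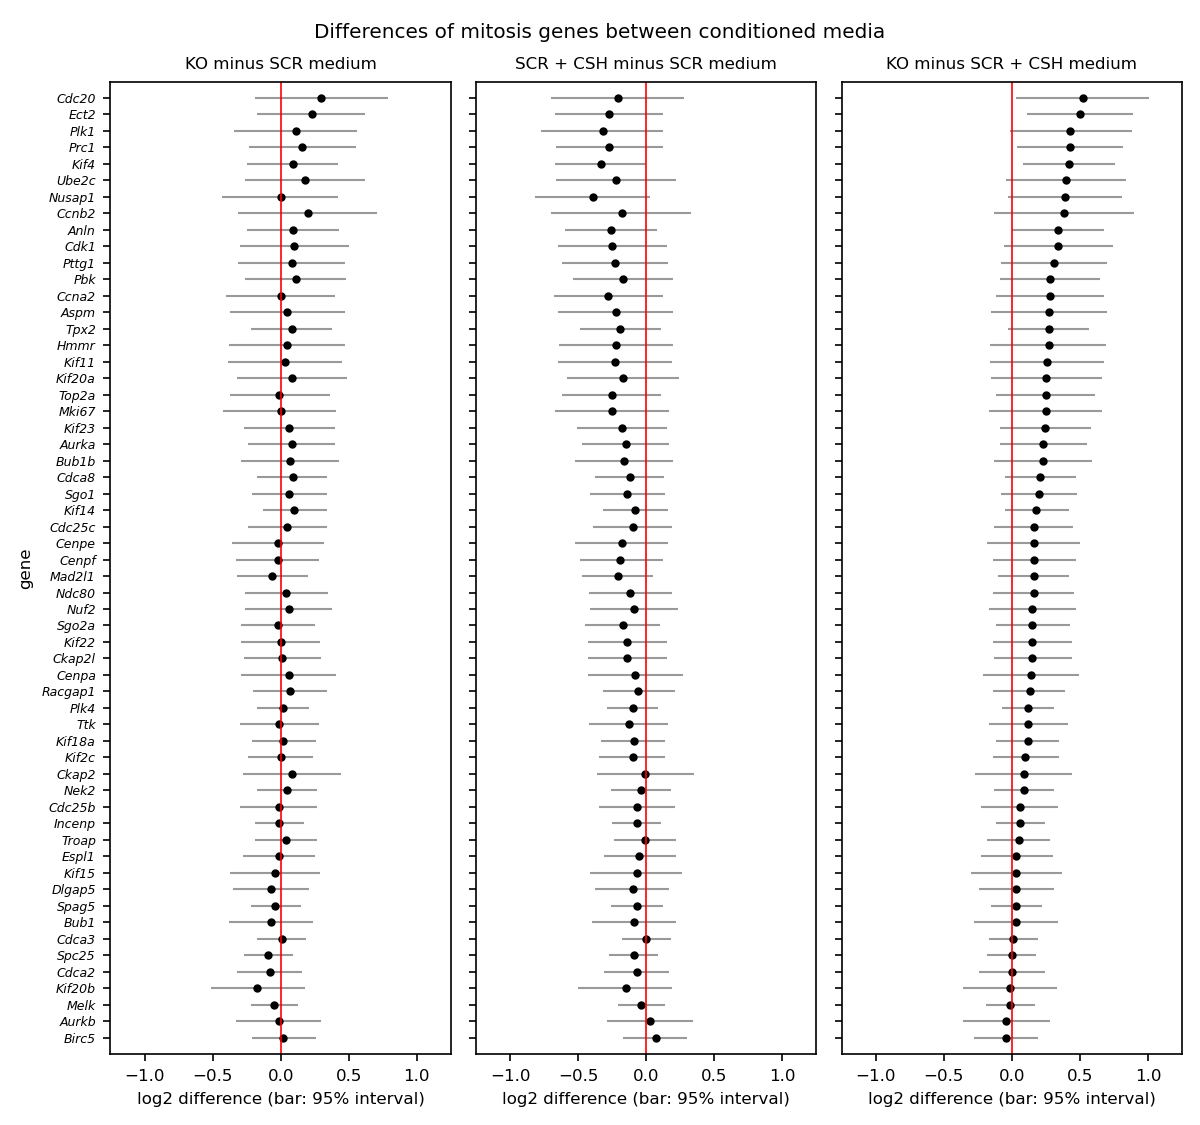
Log2 difference of each of the 58 genes with its 95% interval for KO minus SCR medium (left), SCR medium with CSH minus SCR medium (middle) and KO medium minus SCR medium with CSH (right), ordered by the last. The middle column lies mostly left of the zero line and the right column mostly right of it, and 5 intervals in the right column exclude 0.

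A wider list of 131 further genes of the pathway, of which 123 were tested, moved less uniformly. Both lists were chosen with earlier results of these data known, so the contrast describes the lists and is no test of the pathway. In SCR medium 69 of the 123 fell, 16 rose and 38 were not called, where 15.8% of all tested genes fell and 19.3% rose. Their median was -0.29, against -1.21 for the 58. In KO medium the counts were 70, 18 and 35, beside 17.6% lower and 21.4% higher over all genes. With CSH they were 77, 12 and 34, beside 14.9% lower and 20.8% higher. The shares given for SCR medium also stand beside the counts of each list below. Of the condensin genes, whose product compacts chromosomes, 7 of 8 fell, with a median of -0.77. Ncapd2 averaged 8.34 ± 0.09 in SCR medium and 9.94 ± 0.21 in normal medium (SD, n = 3 each, limma adjusted p = 2.12e-06), and Ncaph2 changed by -0.72. Of further cytokinesis genes 8 of 9 fell and 1 rose, with a median of -0.72, among them the scaffold gene Iqgap3 (-1.0) and Shcbp1 (-1.31). Of further spindle genes 15 of 23 fell and 2 rose, with Knstrn at -1.71 and Fam83d at -1.02. Among 31 further kinetochore genes 17 fell and 2 rose. Cenpp of the inner kinetochore averaged 7.36 ± 0.10 in SCR medium and 8.38 ± 0.15 in normal medium, whereas Zwint, which links the checkpoint to the KNL1 protein, averaged 8.95 ± 0.15 in SCR medium and 8.17 ± 0.10 in normal medium (SD, n = 3 each, limma adjusted p = 3.37e-05), a rise of 0.78.

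Of 11 further entry genes 4 fell, led by Mastl, the Greatwall kinase that restrains protein phosphatase 2A, at -1.76 (SE 0.14, adjusted p = 1.27e-06), and Bora, a cofactor of Aurora A, at -0.74. Cohesin genes split into 6 lower, 1 higher and 3 not called of 10, with Esco2, a cohesin acetyltransferase, at -0.88 and Smc1a at -0.77. The subunits and regulators of the APC/C had no common direction, with 7 higher, 6 lower and 4 not called of 17 and a median close to 0. There Fbxo5, the inhibitor EMI1, changed by -0.80 and the subunit gene Anapc16 by 0.61. Of 14 genes of the MuvB, DREAM and retinoblastoma group 6 fell, 3 rose and 5 were not called, where 15.8% of all genes fell and 19.3% rose. Their median was -0.07, with a range from -0.91 to 0.57. The pocket protein genes Rb1, read from the brightest of its 3 probe sets, and Rbl2 changed by -0.63 and -0.55. Windows with a CHR core made up 46.2% of those of the pathway genes that fell and 32.1% of those of the rest, both below the 75.0% of the 58-gene set.

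Markers of the measured cells were checked beside these results. The macrophage genes Lyz2, Cd68 and Tyrobp averaged 17.78, 17.04 and 16.72 in SCR medium and 17.70, 17.19 and 16.90 in normal medium. Of 10 macrophage markers 2 rose, 5 fell and 3 were not called in SCR medium, where 19.3% of all tested genes rose and 15.8% fell. Of these markers, the growth factor receptor gene Csf1r changed by -1.79 and Adgre1, a surface marker of mature macrophages, by -1.45, while Itgam, CD11b, rose by 0.97. Their part in the mitotic result was not tested. The 13 markers of epithelial tumour cells, listed in case the source cells of the conditioned media were carried over, lay between 4.28 and 5.74 in all arrays. The array medians were 5.40 to 5.52. Only 4 of the 13 were bright enough to be tested, and 0 of these were called. Their summed signal, on the log2 scale, was 8.74 to 8.84 in SCR medium, 8.78 to 8.80 in KO medium, 8.78 to 8.81 with CSH, and 8.76 to 8.78 in normal medium. The 3 measured fibroblast markers were too dim to be tested.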

How the data were processed

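Total RNA of 12 RAW264.7 samples was hybridised to 12 Affymetrix arrays, 3 for each of 4 media, grouped by the titles in the labels. The authors used Affymetrix Expression Console and RMA, with build mm10, to make the deposited log2 values, per the submitters' processing notes. Their versions and any correction for batches were found in no source used here. Since RMA equalises the arrays, a loss of RNA from the whole cell would not show, and differences of dim genes are compressed. The number of arrays limits the precision.

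Of 65528 probe sets, 30984 had 1 gene, 1512 several and 33032 none listed in the platform table, updated through RefSeq GRCm38.p6, the assembly behind mm10. Genes above the array median in at least 3 arrays entered a fit in limma (version 3.58.1, R 4.3.3) with group as the only term over 12 arrays, eBayes with an intensity trend, a median residual SD of 0.0964 and Benjamini-Hochberg adjustment over 18097 genes. The procedure was tested on simulated data.

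The members and all gene lists were chosen with earlier results of these data known. Values in every array are given for Cdk1, Top2a and Mki67, for the 2 smallest p in SCR medium per role group (1 for groups of 3 or 4), for members called higher or not called, and for Ccnb2, whose promoter is shown. For the 3 smallest p of each comparison between media, the arrays of the groups compared are given. Further pathway genes named are the 2 smallest p of each list. Alternatives were other filters, normalizations, variance models, thresholds and probe set rules, array weights, a replicate block, the 6 arrays alone and each array left out. Plots were made in Python 3.11.15 using matplotlib 3.10.9.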

Additional observations from a re-analysis of the deposited data

How the results depend on the processing

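The counts of mitotic genes called held under the alternatives run. Against normal medium, leaving out 1 array gave 56 to 57 called genes in SCR medium, 55 to 57 in KO medium and 56 to 57 with CSH, and the other alternatives gave 55 to 57, 52 to 57 and 56 to 57. Between conditioned media every alternative gave 0. At the main threshold, 54 of the 58 were called lower in all 3 media under each of 21 alternatives. A required fold of at least 1.5 left 52 lower in KO medium. The labels do not say what the replicate numbers mark. Deviations of same-numbered arrays correlated at -0.0653 to 0.295, and those of differently numbered arrays of other groups at -0.234 to 0.211. Of 12 arrays, 5 matched their own number best. The replicate 1 pairs (0.14, 0.211 and 0.295) and the replicate 2 pairs (0.0745, 0.118 and 0.25) were positive. Not every same-numbered pair exceeded 0.1, so the numbers were not used as pairs. With the replicate number as a block, 57 genes were called in each comparison with normal medium and 0 between media, with medians of -1.24, -1.28 and -1.35 in SCR medium, KO medium and SCR medium with CSH. The uncalled medians between media moved to -0.03 with the block and 0.159 with array weights for KO against SCR medium, to -0.094 and -0.04 for CSH against SCR medium, and to 0.064 and 0.155 for KO medium against CSH. For the 22 named genes, 1366 of 1386 recomputed changes kept direction and side of the threshold. In many of these settings the direction could not change. Other filters, no intensity trend and the 6 arrays alone keep the log2 change as it was. So does leaving out an array of a group not compared. The probe set rule kept it too, as no measured member has several. There only the adjusted p could move. Cdk1 in KO medium lost its call in 6 settings, among them without KO replicate 1, 2 or 3 (adjusted p = 0.0632, 0.066 and 0.115), without SCR replicate 1 (0.0502) and with no filter on low values (0.0691), and in SCR medium also without SCR replicate 4 (0.0745). Mad2l1 with CSH lost its call with no filter (adjusted p = 0.0526), median centring (0.0568) and the 6 arrays alone (0.0674) besides the arrays named above. The uncalled Plk4 difference with CSH turned to -0.006 under quantile normalization, -0.003 under median centring, -0.003 with the block, and ranged from -0.058 without CSH replicate 1 through -0.048 without normal medium replicate 2 to 0.082 without CSH replicate 4. The cause of these changes was not tested. With 3 arrays a group, the intervals between media are wide beside the differences.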
